A study of Mus musculus with 6 samples.

Results

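Oxidative phosphorylation (OXPHOS) subunits are the proteins that make up respiratory complexes I to V of mitochondria, and their RNA levels were compared between neurospheres with and without a floxed Fgf13 gene. Members were found by gene name, as complex I (Nduf), complex II (Sdh), complex III (Uqcr), complex IV (Cox4 to Cox8 with a letter), complex V (Atp5) and mitochondrially encoded genes (mt-Nd, mt-Co, mt-Cytb, mt-Atp). Of 54532 gene rows, 103 matched these names, 7 were named as pseudogenes, and 90 of the remainder had a mean of at least 10 normalized counts over the 6 libraries. These 90 comprised 79 genes of the nucleus and 11 of the mitochondrial genome. Of the 6 names left out for a low mean, 4 were at 0 reads in every library (Cox7b2, Cox8c, mt-Atp8 and a second gene ID for Atp5o). The name just outside the limit was mt-Nd4l, with a mean of 9.04 normalized counts, followed by Cox6c2 with 7.28. The lowest member inside was mt-Nd3, with group means of 17.5 in CTRL and 32.7 in FGF13cko.

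The libraries came from the hippocampus of C57BL/6 mice at P0. Dissociated cells of 1 mouse filled 2 culture wells with FGF-2 and EGF, at 20 ng/ml each, and the neurospheres, floating balls of dividing neural progenitors, were collected on day 7. The 3 CTRL libraries are labelled hGFAPCre+, Fgf13+/y, and the 3 FGF13cko libraries hGFAPCre+, Fgf13 flox/y. Both groups thus carry a Cre recombinase under the human GFAP promoter, which is active in radial glia and astrocytes and in the neurons and glia that descend from them. The controls are described as littermates, and whether the libraries of a group are separate animals is not in the labels, so p-values measure only the spread between these libraries.

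Complexes I, III and IV pass electrons to oxygen and pump protons across the inner mitochondrial membrane, and complex V uses the returning protons to make ATP. Complex II feeds electrons into the chain and is built entirely from genes of the nucleus, whereas the other complexes combine nuclear with mitochondrially encoded subunits. Mitochondrial genes are transcribed as long molecules from both strands of a circular genome and are then cut into separate RNAs. In neural stem cells a shift from glycolysis to oxidative phosphorylation accompanies neuronal differentiation.

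Each library held between 22191718 and 24531400 reads in genes. Fgf13 itself had 480, 651 and 276 normalized counts in CTRL 1, 2 and 3 and 200.6, 239 and 332 in FGF13cko 1, 2 and 3. The groups overlapped, since the library labelled CTRL 3 lay below the one labelled FGF13cko 3, and the fall missed the threshold (log2 change -0.81, SE 0.33, limma adjusted p = 0.134), so whole-gene counts of all 6 libraries did not separate the labels. The change was -1.35 (limma adjusted p = 0.000352) without both replicate 3 libraries and -1.15 (0.0108) without CTRL 3, edgeR gave an adjusted p of 0.101 and DESeq2 0.0499. All 12 listed progenitor markers were above the filter in these libraries, with Sox2 at 5923 to 11791 normalized counts. Of these 12, 4 were lower in FGF13cko, while their summed level was 153272 to 173291 in CTRL and 200120 to 219080 in FGF13cko. Markers of young neurons were higher in FGF13cko, where 8 of 12 passed the test and their summed level was 40316 to 55471 normalized counts against 22357 to 30970 in CTRL. Microglia and macrophage markers, 2 of 7 higher, summed to 183 to 193 in CTRL and 369 to 552 in FGF13cko, and endothelial markers, 2 of 5 higher, to 47.5 to 93.6 and 182 to 306. The sums of 4 further lists overlapped between groups, with 1 of 6 astrocyte markers higher, 2 of 6 mural and fibroblast markers higher (3 higher and 2 lower with the block), 2 of 10 oligodendrocyte lineage markers lower and 0 of 1 erythroid marker called by limma. Of all genes tested limma called 7.55% higher and 7.08% lower. Whether these markers have a part in the values below was not tested, and in bulk RNA fewer cells of a type and less RNA per cell cannot be told apart. Both replicate 3 libraries stood apart from the others, with mitochondrial genes at 4.14% of reads in CTRL 3 and 4.05% in FGF13cko 3, against 1.46% to 2.36% in the rest. Results are therefore also given without these libraries and with the replicate number as a block.

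Sequences are shown first for 2 sets of members on which the results turn. The first set is the 3 genes for the c subunit of ATP synthase, which encode the same mature protein from different chromosomes and moved apart here. Their RefSeq promoters (GRCm38.p6, the 250 bases before the start, 5′ to 3′) are printed in lower case, with matches to an estrogen-related receptor (ERR) motif TCAAGGTCA, an NRF1 motif GCATGCGC or a hypoxia-response core ACGTG, on either strand, in capitals.
Atp5g1, chr11:96075632-96075881, minus strand: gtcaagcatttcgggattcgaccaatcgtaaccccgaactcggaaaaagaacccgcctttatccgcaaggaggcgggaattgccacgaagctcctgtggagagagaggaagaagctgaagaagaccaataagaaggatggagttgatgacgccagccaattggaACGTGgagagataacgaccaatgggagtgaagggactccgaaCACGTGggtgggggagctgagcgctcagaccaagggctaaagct
Atp5g3, chr2:73911327-73911576, minus strand: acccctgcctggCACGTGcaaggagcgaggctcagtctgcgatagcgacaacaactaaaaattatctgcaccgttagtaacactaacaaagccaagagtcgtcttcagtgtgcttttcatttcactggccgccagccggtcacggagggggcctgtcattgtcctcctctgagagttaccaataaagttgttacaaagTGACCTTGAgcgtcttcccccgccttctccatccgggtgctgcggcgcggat
Atp5g2, chr15:102671048-102671297, minus strand: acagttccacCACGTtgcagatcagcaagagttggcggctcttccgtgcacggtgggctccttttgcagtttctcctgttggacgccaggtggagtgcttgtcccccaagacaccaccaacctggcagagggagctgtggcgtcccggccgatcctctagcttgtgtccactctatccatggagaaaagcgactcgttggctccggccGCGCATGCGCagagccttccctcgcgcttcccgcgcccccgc
The Atp5g1 promoter held only hypoxia cores, the Atp5g3 promoter held the ERR motif and a hypoxia core, and the Atp5g2 promoter held an NRF1 motif and a hypoxia core. Overlapping matches on both strands form 1 run of capitals. The RefSeq table held promoters of 67 of the 79 nuclear members, and 1 promoter was read per gene. Among them the ERR motif occurred in 1 promoter, Atp5g3 (1.49%), against 0.366% of all 27025 promoters, and the hypoxia core in 20.9% against 16.6%. The NRF1 motif occurred in 8 member promoters (11.9% against 2.32%), those of Atp5g2, Atp5k, Atp5l, Ndufa6, Ndufa8, Ndufa11, Sdhb and Cox6a1. An ETS motif CCGGAAG, of the kind bound by GABP, was in 16.4% against 7.05%, and the YY1 motif AAGATGG in 0 of 67 against 4.53%. Member promoters were those nearest the GENCODE start and the 27025 were the first listed per gene, so the percentages compare promoters chosen differently. A match is a description of these letters, not evidence of binding. For Atp5g2 the RefSeq start lay 3298 bases from the start of the GENCODE transcript used for its length.

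The second set is mitochondrial genes with a near-identical copy in the nucleus, shown because such copies limit what their counts can mean. A block of pseudogenes on chromosome 1 (chr1:24611535-24616197, minus strand, GRCm38) repeats part of the mitochondrial genome. The first bases of mt-Nd3 and mt-Co3 and a stretch of mt-Co1 are printed beside their copies from GENCODE M21 transcripts, with differing bases in capitals.
mt-Nd3: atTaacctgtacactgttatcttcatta
Gm28438: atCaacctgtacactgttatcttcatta
mt-Co1: ggaAttgttttatccaactcatcccttga
Gm29216: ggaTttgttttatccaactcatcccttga
mt-Co3: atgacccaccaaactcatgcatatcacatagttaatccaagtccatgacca
Gm28437: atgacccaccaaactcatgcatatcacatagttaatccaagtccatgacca
The mt-Nd3 copy differed at 1 of 345 bases, the mt-Co3 copy at 0 of 783, and the mt-Co1 copy at 1 of 483. Over all 6 libraries, mt-Co2 held 2513 reads and its copies 2614, mt-Co3 1213 and 1131, mt-Atp6 1251 and 2203, and mt-Nd3 153 and 172. These are the 4 members whose copy on chromosome 1 spans the whole transcript or nearly so. In contrast mt-Co1 held 1861329 reads and its copies 2306. Its chromosome 1 copy spans 483 of 1545 bases, and a further copy on chromosome 2, Gm13340, spans all 1545 at 97.6% identity. mt-Nd4 matched a chromosome 1 copy, Gm28439, at 100% identity over 63.6% of its transcript. That copy held 456 reads beside 181163 of mt-Nd4. Partial copies of mt-Nd2 (96.7% identity, 49.1% covered) and mt-Nd5 (95.2%, 52.3%) held 16 and 10 reads, beside 233040 and 240280 of the genes. No copy of at least 95% identity was found for mt-Nd1, mt-Cytb or mt-Nd6. How reads that match both places were counted is not given in the sources used here, so the levels of mt-Co2, mt-Co3, mt-Atp6 and mt-Nd3 are uncertain.

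The mitochondrially encoded subunits of complex I all had higher means in FGF13cko, and mt-Nd2 passed the test. Of the 11 mitochondrially encoded members 1 rose and 0 fell, and of the 79 nuclear members 3 rose (Atp5g1, Atp5g3 and Ndufa11) and 0 fell, by limma with Benjamini-Hochberg adjustment over all genes at a threshold of 0.05. Among all 16852 genes tested 14.6% were called, 7.55% as higher and 7.08% as lower, so the members' share of 4.44% called was below the background. The median log2 change was 0.70 over the mitochondrially encoded members and 0.23 over the nuclear ones, beside 0.02 over all genes tested. The first became 0.39, 0.42, 1.25 and 0.43 without CTRL 1, CTRL 2, CTRL 3 and FGF13cko 3. The second became 0.08, 0.13, 0.38 and 0.07 in the same fits. In the main fit the 4 mitochondrially encoded members with a whole copy on chromosome 1 had a median of 0.20, and the other 7 of 0.94. At an unadjusted limma p under 0.05 there were 15 members higher and 1 lower, where 31.9% of all genes passed, 16.7% as higher and 15.1% as lower. edgeR called 3 higher and 0 lower, against 7.06% and 7.86% of all genes, and DESeq2 12 and 1, against 11.9% and 11.7%. The log2 changes are differences of log2(normalized count + 1) between group means, FGF13cko minus CTRL, with 3 libraries per group.

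mt-Nd2 (chromosome M, 3914 to 4951), a membrane subunit of complex I, had 15830, 16708 and 28201 normalized counts in CTRL 1, 2 and 3 and 48060, 46024 and 73854 in FGF13cko 1, 2 and 3. Every FGF13cko library lay above every CTRL library, and replicate 3 was the highest of each group. It rose by 1.48 on the log2 scale (SE 0.30, limma adjusted p = 0.0181, and 0.000514 with the replicate block). The call was kept without CTRL 3 or FGF13cko 1 and lost without any one of the other libraries, with limma adjusted p from 0.0549 to 0.0742. mt-Nd1 (chromosome M, 2751 to 3707), which lies upstream of mt-Nd2 on the same strand, had 34244, 37632 and 64794 normalized counts in CTRL and 88864, 83102 and 153052 in FGF13cko. Its groups did not overlap either, and the log2 change of 1.25 (SE 0.35) fell just short of the threshold (limma adjusted p = 0.0506, and 0.00257 with the block).

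Further subunits of complex I on the same genome had smaller differences and overlapping groups. mt-Nd4 had 14540, 14895 and 33150 normalized counts in CTRL and 30226, 30144 and 55389 in FGF13cko, for a change of 0.94 on the log2 scale (SE 0.38, limma adjusted p = 0.137, and 0.00364 with the block). mt-Nd5 had 20081, 21122 and 56302 in CTRL and 35881, 40325 and 63398 in FGF13cko, a change of 0.65 on the log2 scale (SE 0.42, limma adjusted p = 0.332, and 0.0394 with the block). In both genes CTRL 3 lay among the FGF13cko libraries, while CTRL 1 and 2 lay below all 3 of them. Without CTRL 3 the change was 1.13 for mt-Nd5 and 1.33 for mt-Nd4, and both passed (limma adjusted p = 0.0116 and 0.00918), as did mt-Nd1 and mt-Cytb (0.00591 and 0.00941). mt-Nd6, the subunit read from the opposite strand, had 2770, 2936 and 11303 in CTRL and 4939, 7499 and 10533 in FGF13cko (log2 change 0.70, SE 0.53, limma adjusted p = 0.407, and 0.0480 with the block), which became 0.34 without CTRL 1 and 1.36 without CTRL 3 (limma adjusted p = 0.00941). It overlaps mt-Nd5 at its end, and reads of the kit used carry no strand. mt-Nd3 had between 6.04 and 45.4 normalized counts in all libraries, and its log2 change of 1.20 (limma adjusted p = 0.235), which became 0.71 without CTRL 2 and 1.93 without CTRL 3 (0.0140), rests on 153 reads.

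mt-Cytb, the mitochondrially encoded subunit of complex III, had 49967, 52575 and 97080 normalized counts in CTRL and 106103, 101063 and 168608 in FGF13cko. The groups did not overlap, although CTRL 3 came close to the FGF13cko values, and the log2 change was 0.94 (SE 0.36, limma adjusted p = 0.113, and 0.0125 with the block). mt-Co1, the catalytic subunit of complex IV and the most abundant member, went the other way in the mean. It had 215298, 199332 and 598983 normalized counts in CTRL and 220296, 227650 and 385968 in FGF13cko, a change of -0.14 on the log2 scale (SE 0.51, limma adjusted p = 0.880) that became 0.37 without CTRL 3. Apart from the replicate 3 libraries its 4 values lay close together. The log2 change was -0.09 for mt-Co2, 0.22 for mt-Co3 and 0.18 for mt-Atp6, and none passed the test under the main fit, the block or without both replicate 3 libraries.

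**Figure D1:**
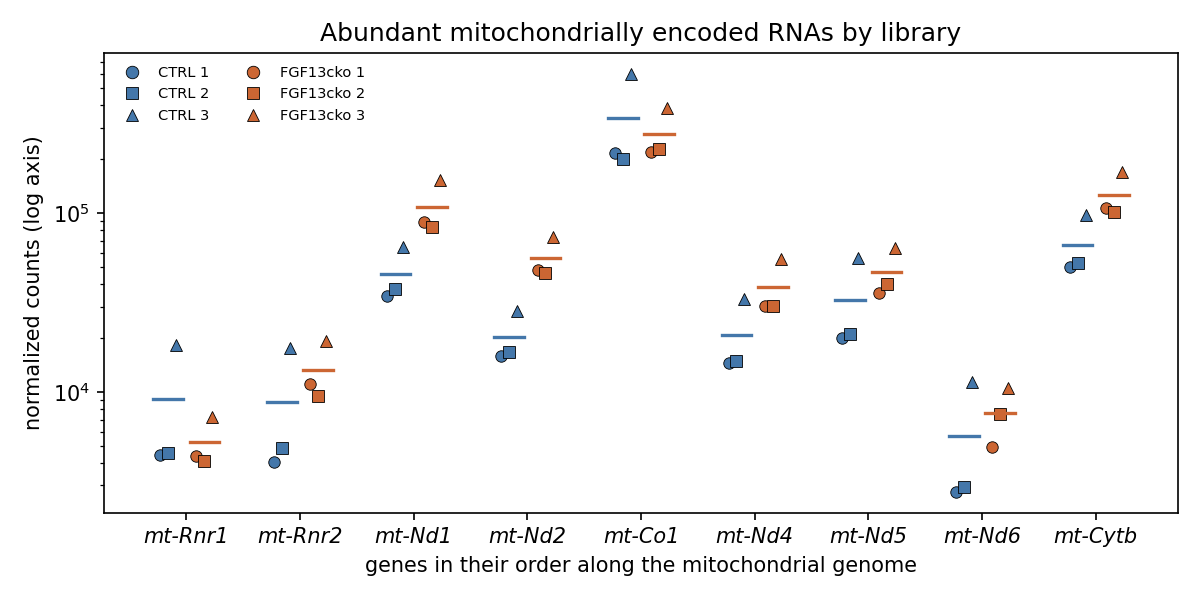
Normalized counts (log axis) of 7 abundant mitochondrially encoded members and both ribosomal RNAs in each of the 6 libraries, in genome order, with bars at the group means. mt-Nd1, mt-Nd2 and mt-Cytb show no overlap between groups, whereas mt-Co1 overlaps, with CTRL 3 at 598983 as the highest value.

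Per kilobase of transcript, the order of mean levels in CTRL was mt-Co1 (218687 normalized counts per kb), mt-Cytb (58165), mt-Nd1 (47604), mt-Nd2 (19505), mt-Nd5 (17819), mt-Nd4 (15139) and mt-Nd6 (10924). Between libraries the ranges of mt-Cytb and mt-Nd1 overlapped, and so did those of mt-Nd2, mt-Nd5, mt-Nd4 and mt-Nd6. Within each CTRL library the order was the same, except that mt-Nd5 lay above mt-Nd2 in CTRL 3. In FGF13cko the order was mt-Co1 (179917), mt-Nd1 (113207), mt-Cytb (109491), mt-Nd2 (53930), mt-Nd4 (28002), mt-Nd5 (25512) and mt-Nd6 (14753). There the ranges of mt-Co1, mt-Nd1 and mt-Cytb overlapped between libraries, and so did those of mt-Nd4, mt-Nd5 and mt-Nd6. Within each FGF13cko library the order was the same, except in FGF13cko 2. In that library mt-Cytb lay above mt-Nd1, and mt-Nd5 above mt-Nd4. The members with a whole copy on chromosome 1 stood far below these in both groups, from 50.4 for mt-Nd3 to 648 for mt-Co2 in CTRL.

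Ratios within a library set the mitochondrial RNAs against each other and so do not depend on the scaling between libraries. They were chosen after the values were seen and are given as a description with no test. There were 7.35, 8.38 and 4.71 mt-Nd2 counts per 100 mt-Co1 counts in CTRL 1, 2 and 3 and 21.8, 20.2 and 19.1 in FGF13cko. The corresponding values for mt-Nd1 were 15.9, 18.9 and 10.8 against 40.3, 36.5 and 39.7, and for mt-Cytb 23.2, 26.4 and 16.2 against 48.2, 44.4 and 43.7. The ratios of mt-Nd4 ranged from 5.53 to 7.47 in CTRL and from 13.2 to 14.4 in FGF13cko, and those of mt-Nd5 from 9.33 to 10.6 and from 16.3 to 17.7. On this scale the replicate 3 libraries fell in with their own groups for mt-Nd5 and lay lowest in CTRL for the other 4 genes.

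The ribosomal RNAs of the mitochondrion, which are not members, were sparse here, at 1.80 to 5.03 counts per 100 mt-Co1 counts. How much of these RNAs the libraries kept was not tested. Their ratio to each other also differed between the groups. mt-Rnr1 had 4436, 4553 and 18314 normalized counts in CTRL and 4382, 4098 and 7233 in FGF13cko. mt-Rnr2, which follows it on the same strand, had 4045, 4830 and 17570 in CTRL and 11092, 9519 and 19177 in FGF13cko. The ratio of mt-Rnr2 to mt-Rnr1 was 0.912, 1.06 and 0.959 in CTRL and 2.53, 2.32 and 2.65 in FGF13cko, so the replicate 3 libraries were not set apart in it. Neither RNA passed the test on its level (limma adjusted p = 0.547 for mt-Rnr1 and 0.310 for mt-Rnr2) in the main fit, while mt-Rnr2, with a log2 change of 0.85, passed with the block (0.0189) and without both replicate 3 libraries (1.22, limma adjusted p = 4.56e-05). Of the 24 mitochondrial ribosomal and transfer RNA genes, 21 had 0 reads in every library.

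**Figure D2:**
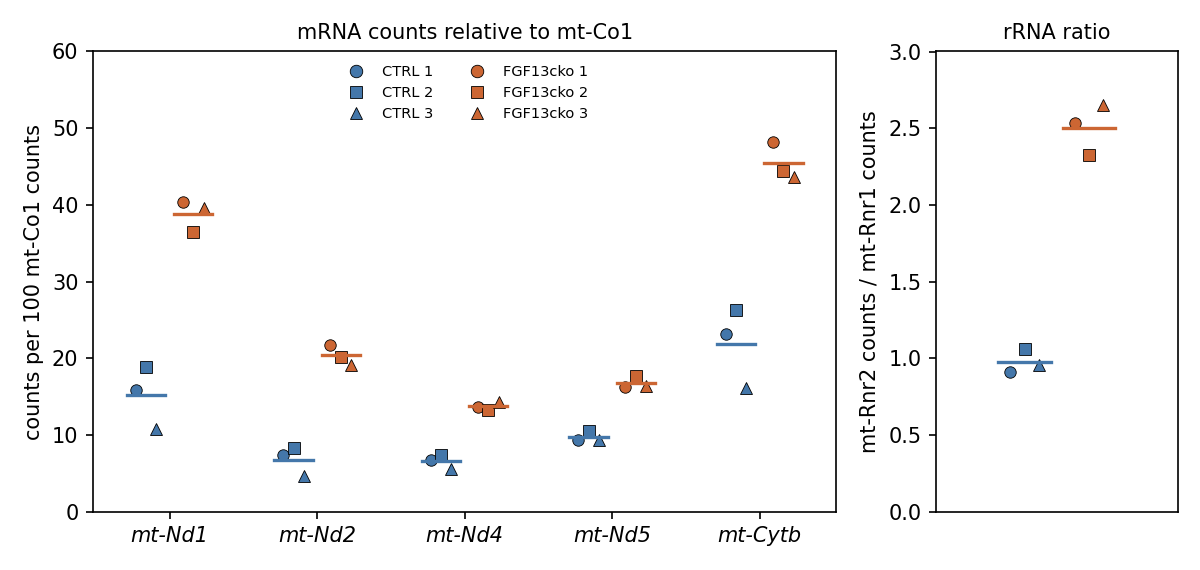
Counts of 5 mitochondrially encoded mRNAs per 100 mt-Co1 counts in each library (left) and the ratio of mt-Rnr2 to mt-Rnr1 counts (right), with bars at the group means. All FGF13cko libraries lie above all CTRL libraries, for mt-Nd2 at 19.1 to 21.8 against 4.71 to 8.38.

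Among the nuclear members the clearest differences were in the c ring of complex V, the rotor that protons turn. Atp5g1 (ENSMUSG00000006057, chromosome 11, 96068852 to 96075670) had 2970, 3349 and 2608 normalized counts in CTRL and 5464, 5449 and 6936 in FGF13cko. All FGF13cko libraries lay well above all CTRL libraries, and CTRL 3 was the lowest. It rose by 0.997 on the log2 scale (SE 0.17, limma adjusted p = 0.00957), and the call held without each library in turn except FGF13cko 2 (limma adjusted p = 0.0506). Atp5g3 (ENSMUSG00000018770, chromosome 2, 73908447 to 73911326) had 6981, 7318 and 5161 in CTRL and 11684, 11102 and 10089 in FGF13cko. Here replicate 3 was the lowest of each group, and the groups did not overlap. It rose by 0.77 (SE 0.18, limma adjusted p = 0.0284) and kept the call without CTRL 2 or CTRL 3, whereas without any one of the others limma adjusted p ranged from 0.0716 to 0.119.

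Atp5g2 (ENSMUSG00000062683, chromosome 15, 102662864 to 102672352), the remaining c-subunit gene, had 5647, 5582 and 9990 normalized counts in CTRL and 4691, 4131 and 5485 in FGF13cko. All FGF13cko libraries lay below all CTRL libraries, CTRL 3 being far above the rest. Its log2 change of -0.52 (SE 0.25) did not pass the main test (limma adjusted p = 0.190) and passed with the block (0.0260) and without both replicate 3 libraries (0.0120), but became -0.25 without CTRL 3 alone (0.221). Its transcript is matched in full by 2 pseudogenes that held 789 reads beside 35704 of its own, and the Atp5g1 transcript is matched over 69.0% by 1 pseudogene with 170 reads beside 27207. No such copy was found for Atp5g3.

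Of the counts of the 3 genes together, Atp5g2 made up 36.2%, 34.4% and 56.3% in CTRL and 21.5%, 20.0% and 24.4% in FGF13cko. The share of Atp5g1 was 19.0%, 20.6% and 14.7% against 25.02%, 26.3% and 30.8%. The share of Atp5g3 was 44.8%, 45.0% and 29.1% against 53.5%, 53.7% and 44.8%, so that CTRL 1 and 2 matched FGF13cko 3. The sum of all 3 was 15598, 16249 and 17759 normalized counts in CTRL and 21838, 20682 and 22511 in FGF13cko. The sum was thus higher in every FGF13cko library, while Atp5g2 passed from the largest share in CTRL 3, and the second largest in CTRL 1 and 2, to the smallest in all 3 FGF13cko libraries.

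**Figure D3:**
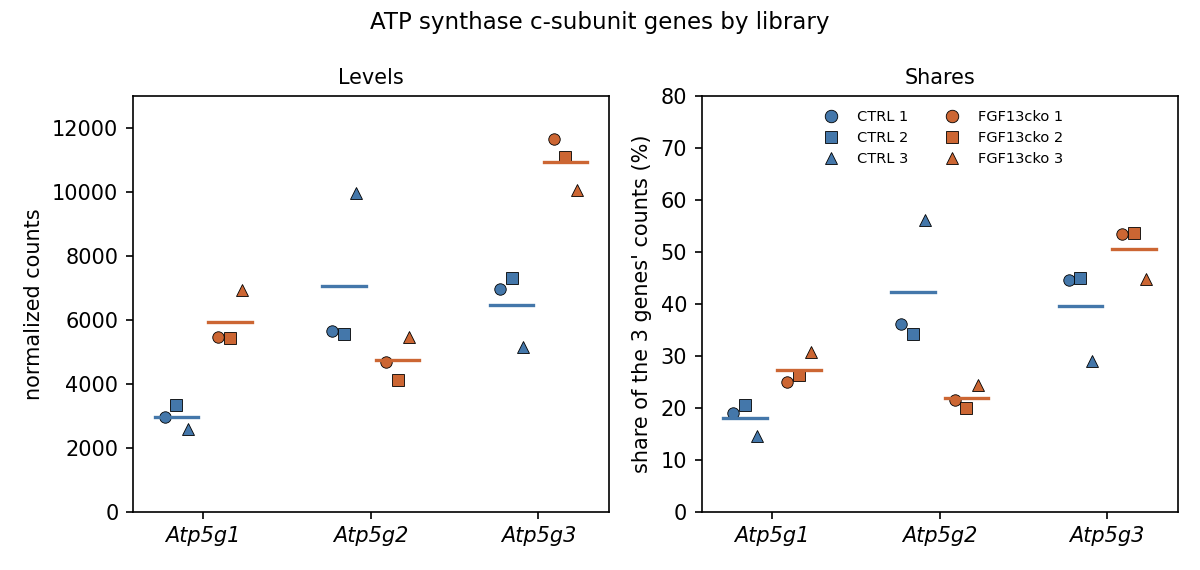
Normalized counts of the 3 ATP synthase c-subunit genes in each library (left) and their shares of the summed counts in percent (right), with bars at the group means. Atp5g1 lies between 2608 and 3349 in CTRL and between 5449 and 6936 in FGF13cko, and Atp5g2 is lower in every FGF13cko library.

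In the rest of complex V limma and edgeR called 0 members and DESeq2 called 1, Atp5k, which was also the 1 with an unadjusted p under 0.05. All genes gave 14.6% by limma, 14.9% by edgeR, 23.6% by DESeq2 and 31.9% at an unadjusted limma p under 0.05. The F1 head and central stalk, which carry the catalytic sites, had 0 of 5 members past the threshold and a median log2 change of 0.14, and the peripheral stalk 0 of 4 with a median of 0.27. Atp5b, the catalytic beta subunit and the most abundant nuclear member, had 49971, 51172 and 38342 normalized counts in CTRL and 56710, 53849 and 55309 in FGF13cko (log2 change 0.26, SE 0.22, limma adjusted p = 0.443). Its groups did not overlap, CTRL 3 lay lowest, and the change was 0.13 without CTRL 3. Atp5k, a small membrane subunit, had 627, 740 and 1031 in CTRL and 1163, 1181 and 1393 in FGF13cko (log2 change 0.67, limma adjusted p = 0.0625, and 0.00739 with the block). Atp5s, matched by its name, is a coupling factor and not a subunit, and its log2 change was -0.35 (limma adjusted p = 0.455).

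Complex I had 35 nuclear members, with a median log2 change of 0.17 and 28 of 35 changes above 0. Of all genes tested limma called 7.55% higher, and 16.2% with the block, edgeR 7.06% and DESeq2 11.9%. An unadjusted limma p under 0.05 was given to 16.7% as higher. Of the 35 members limma called 1 higher and 4 with the block, edgeR 0 and DESeq2 4, and 5 had an unadjusted limma p under 0.05. The 1 called in the main fit was Ndufa11 (ENSMUSG00000002379, chromosome 17, 56717767 to 56722141), an accessory subunit of the membrane arm. It had 213, 228 and 234 normalized counts in CTRL and 316, 337 and 381 in FGF13cko, with no overlap and little spread in either group, and it rose by 0.61 (SE 0.16, limma adjusted p = 0.0396). The call was kept only without CTRL 3 among the 6 fits that leave out a library, the others giving limma adjusted p of 0.0767 to 0.143, and edgeR gave 0.0533. Ndufa11 overlaps the gene Vmac. The 7 core subunits of the nucleus hold the flavin and iron-sulfur clusters or dock quinone, and their median log2 change was 0.19. Of these 7, limma, edgeR and DESeq2 called 0, and 0 had an unadjusted limma p under 0.05. Ndufs7 had an unadjusted p of 0.0417 by edgeR and 0.0187 by DESeq2. Ndufs7, a core subunit, was the member of complex I whose FGF13cko libraries all lay below CTRL, with 3479, 3479 and 3065 normalized counts in CTRL and 2799, 2771 and 2819 in FGF13cko (log2 change -0.25, limma adjusted p = 0.214). Ndufc2, the most abundant nuclear member of complex I, had 5245, 7421 and 12691 in CTRL and 7403, 6961 and 10874 in FGF13cko, with full overlap (log2 change 0.06, limma adjusted p = 0.919).

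Complex II, with 4 nuclear members, had 0 called by limma in the main fit, with the block or without both replicate 3 libraries. Sdha, its flavoprotein, had 11379, 11645 and 8329 normalized counts in CTRL and 12724, 12384 and 11862 in FGF13cko (log2 change 0.25, SE 0.18, limma adjusted p = 0.370). CTRL 3 alone lay far below the others, and without it the change was 0.098. The changes of the 4 ranged from 0.12 to 0.25. There were also 0 at an unadjusted p under 0.05, by edgeR and by DESeq2, against 31.9%, 14.9% and 23.6% of all genes. The 3 limma fits called 14.6%, 30% and 37.3% of all genes.

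Complex III had 8 nuclear members, all with a log2 change above 0 (0.02 to 0.52, median 0.27), and 0 called by limma or edgeR, against 1 by DESeq2 and 1 at an unadjusted p under 0.05. Of all genes DESeq2 called 11.9% higher, and 16.7% were higher at an unadjusted limma p under 0.05. Uqcrc1, a core protein of the matrix side, had 4869, 4895 and 3491 normalized counts in CTRL and 6299, 6676 and 5798 in FGF13cko (log2 change 0.52, limma adjusted p = 0.0859, and 0.0172 with the block). Its groups did not overlap, and replicate 3 was the lowest of each. Uqcrq, the most abundant, had 4257, 4384 and 5914 in CTRL and 5520, 5318 and 7806 in FGF13cko (log2 change 0.35, limma adjusted p = 0.282, and 0.18 without FGF13cko 3).

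Complex IV had 15 nuclear members, among them Ndufa4, which was first named as part of complex I. Its median log2 change was 0.28, and its range, from -1.98 to 1.77, was the widest of the 5 complexes. limma and edgeR called 0 of them. DESeq2 called 1 higher, Cox5a (adjusted p = 0.0458), and 1 lower, Cox6a2 (0.0174), but not Cox8b (0.0707). At an unadjusted limma p under 0.05 there were 2 higher (Cox5a and Cox8b) and 1 lower (Cox6a2). Of all genes DESeq2 called 11.9% higher and 11.7% lower, and 16.7% and 15.1% had an unadjusted limma p under 0.05. Cox5a had a log2 change of 0.61 (limma adjusted p = 0.0883, and 0.0141 with the block), which was 0.38 without CTRL 3. The extremes of the range were isoforms of muscle and heart at low levels. Cox6a2 had 61.0, 53.3 and 117 normalized counts in CTRL and 6.88, 19.3 and 39.6 in FGF13cko (log2 change -1.98, SE 0.60, limma adjusted p = 0.0619, and 0.00486 with the block). All its FGF13cko libraries lay below CTRL, and it made up 0.369% to 0.640% of the counts of both 6a isoforms in CTRL and 0.0389% to 0.179% in FGF13cko. Cox8b had 23.4, 28.2 and 116 in CTRL and 116, 136 and 207 in FGF13cko (log2 change 1.77, SE 0.57, limma adjusted p = 0.0747, and 0.00394 with the block). Cox8b was as high in CTRL 3 as in FGF13cko 1, and it passed without CTRL 3 (limma adjusted p = 0.00132), as Cox6a2 did without FGF13cko 3 (0.0452). The third muscle isoform, Cox7a1, had a log2 change of 0.71 (limma adjusted p = 0.306), which was 0.34 without CTRL 1 and 1.13 without CTRL 3 (0.0477).

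Muscle markers fixed as a list were low throughout, and 2 of the 3 that could be tested were lower in FGF13cko (Myh6 and Actc1), where limma called 7.08% of all genes lower. The list summed to 504 to 578 normalized counts in CTRL and 92.8 to 165 in FGF13cko, most of it Myh6, while Ckm and Mb were at 0 to 3.87. The part of such cells in the isoform values was not tested. The ubiquitous partners had small differences: Cox6a1 changed by 0.29 on the log2 scale (limma adjusted p = 0.314), Cox8a by 0.11 (0.738) and Cox7a2 by 0.15 (0.777). Cox7a2l is known as a factor for joining complexes III and IV into a supercomplex, and whether it does so in these mice was not tested. It had 4435, 4195 and 6759 normalized counts in CTRL and 3478, 3272 and 4238 in FGF13cko. FGF13cko 3 lay just above CTRL 2, and the log2 change of -0.46 (SE 0.21, limma adjusted p = 0.178) passed with the block (0.0252) and was -0.24 without CTRL 3 (0.213). Ndufa4 had a change of 0.44 on the log2 scale (SE 0.33, limma adjusted p = 0.403, and 0.0357 with the block, 0.19 on the log2 scale without FGF13cko 3 and 0.80 without CTRL 3, limma adjusted p = 0.0307), with 3403, 3688 and 7505 in CTRL and 5264, 5142 and 8646 in FGF13cko.

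Over all complexes, 75 of the 90 log2 changes were above 0. The groups did not overlap for 23 members that were higher in FGF13cko, against 20.6% of all genes tested, and for 3 that were lower (Ndufs7, Cox6a2 and Atp5g2), against 18.7%. The share of members without overlap was 25.6% for higher and 3.33% for lower. With the replicate block 19 members were called higher and 3 lower (Cox6a2, Cox7a2l and Atp5g2) by limma, where all genes gave 16.2% and 13.9%, or 30% in either direction against 22 of 90 members. Without both replicate 3 libraries 47 members were called higher and 4 lower, where all genes gave 18.9% and 18.4%, or 37.3% in either direction against 51 of 90 members. The 4 were Ndufs7, Cox6a2, Cox7a2l and Atp5g2. Leaving out CTRL 3 alone gave 24 higher and 0 lower, against 13.4% and 12.9% of all genes, or 26.4% in either direction, and leaving out any other library gave 0 to 2 calls.

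By complex, the median log2 change of nuclear members was 0.17 for complex I, 0.18 for II, 0.27 for III, 0.28 for IV and 0.26 for V. Without both replicate 3 libraries it was 0.21, 0.14, 0.32, 0.37 and 0.27 in the same order, and without CTRL 3 alone 0.33, 0.24, 0.50, 0.51 and 0.38. Of the 3 mitochondrially encoded members of complex IV, mt-Co2 gives the median, and the levels of mt-Co2 and mt-Co3 are uncertain because of their copies. The mitochondrially encoded members of complex I had a median of 1.07 and those of complex IV a median of -0.09. Without both replicate 3 libraries these medians were 1.18 and 0.13. In that fit 14 of 35 nuclear members of complex I were called higher, 0 of 4 of II, 7 of 8 of III, 11 of 15 of IV and 8 of 17 of V, together with 6 of 6 mitochondrially encoded members of complex I, mt-Cytb, and 0 of the 3 of complex IV. Of all genes 18.9% were called higher in that fit. The differences between complexes were not tested. An adjusted p under the threshold was given to 11 members in the authors' deposited table, where 16.7% of all genes with a value did. These 11 were the 4 called here together with mt-Nd1, mt-Cytb, Atp5k, Ndufb6, Ndufb7, Cox8b and Cox6a2.

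**Figure D4:**
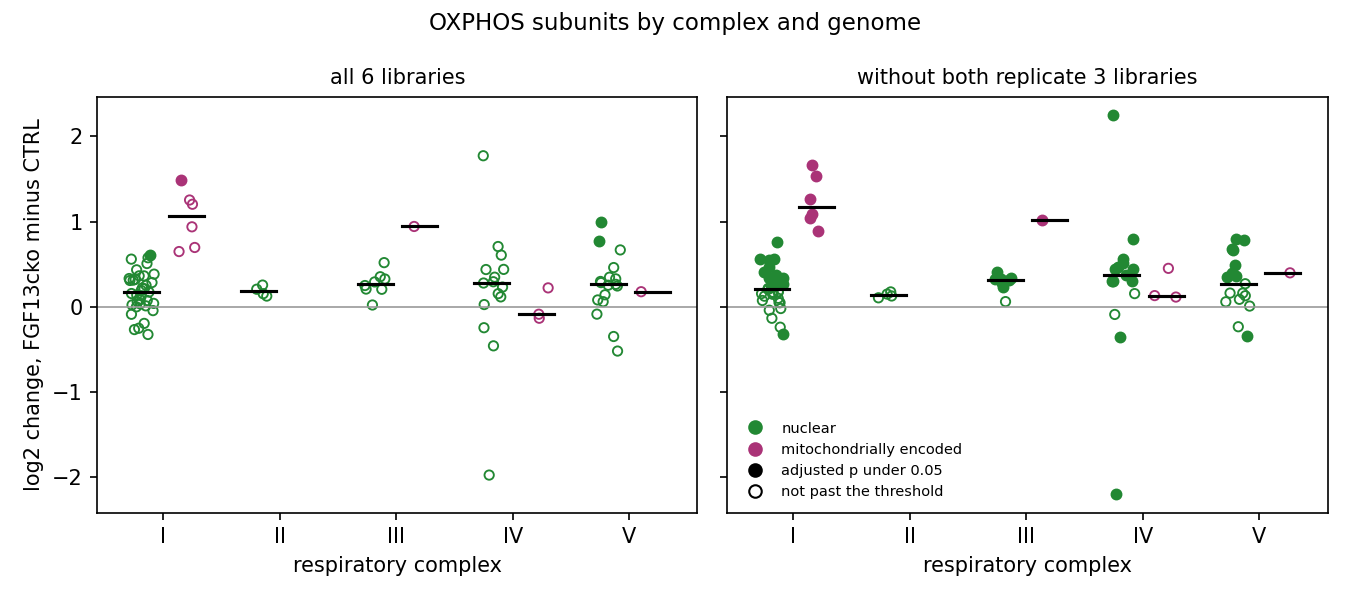
Log2 change, FGF13cko minus CTRL, of each of the 90 members by respiratory complex, with nuclear members in green and mitochondrially encoded ones in purple, from all 6 libraries (left) and without both replicate 3 libraries (right). Filled points have a limma adjusted p under 0.05, and bars mark medians. The mitochondrially encoded subunits of complex I have the highest median of the sets with more than 1 member, 1.07 on the left, and Cox8b is the highest single member at 1.77.

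Levels by library show where the groups overlap. Relative to the CTRL mean of each gene, the median over the nuclear members was -0.21, -0.18 and 0.40 in CTRL 1, 2 and 3 and 0.07, 0.04 and 0.47 in FGF13cko. Over the mitochondrially encoded members it was -0.39, -0.46 and 0.89 in CTRL and 0.32, 0.64 and 1.22 in FGF13cko. In both sets replicate 3 was the highest of its group, and CTRL 3 lay above FGF13cko 1 and 2. CTRL 3 was above the mean of CTRL 1 and 2 in 64 of 79 nuclear members (median 0.60), and FGF13cko 3 above that of FGF13cko 1 and 2 in 72 (median 0.43). Over all nuclear protein-coding genes tested, 13980 in all, the same medians were -0.14 and -0.02.

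The difference of replicate 3 was larger for short transcripts. In CTRL it had a median of 0.79 for the 52 nuclear members of up to 1000 bases and 0.48 for the 27 longer ones, and in FGF13cko of 0.48 and 0.33. Across the 79 members its Spearman correlation with transcript length was -0.38 in CTRL and -0.31 in FGF13cko. Across all protein-coding genes the correlations were -0.24 and -0.23, and genes of up to 1000 bases had medians of 0.45 and 0.31. These are descriptions across genes of the same libraries, with no test. For the change between genotypes the Spearman correlation with length was -0.22 over the nuclear members and -0.40 without both replicate 3 libraries, where members of up to 1000 bases had a median of 0.31 and longer ones of 0.16. Over all nuclear protein-coding genes these correlations were 0.07 and 0.03.

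**Figure D5:**
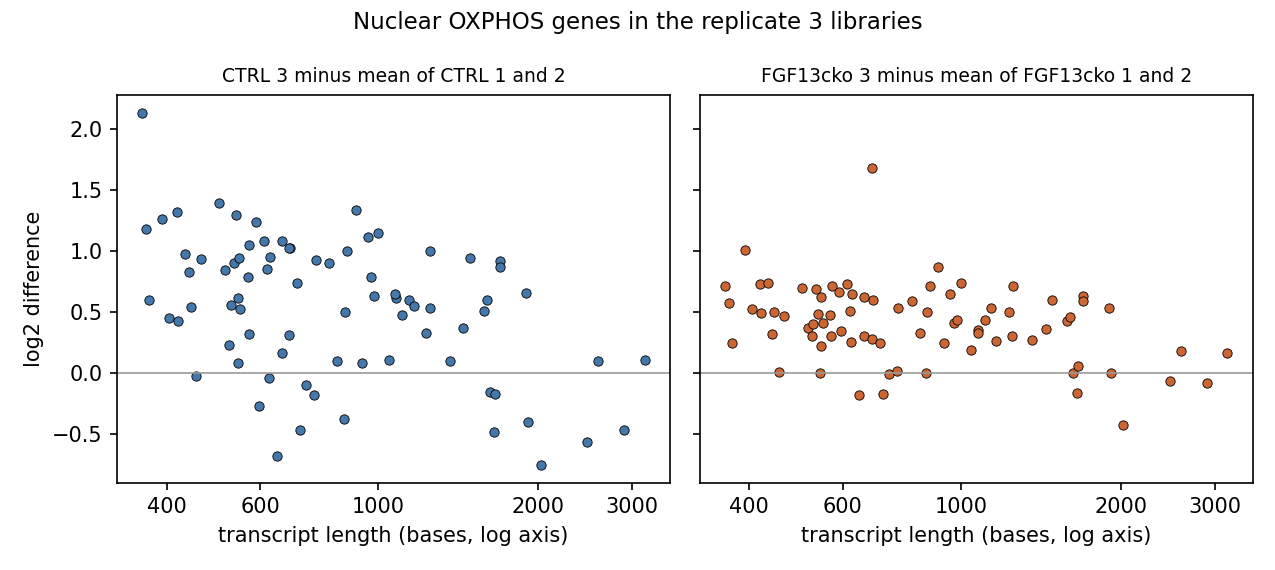
Difference on the log2 scale between the replicate 3 library and the mean of the other two libraries of its group, for 79 nuclear members, against transcript length in bases (log axis), for CTRL (left) and FGF13cko (right). Most points lie above 0, and transcripts of up to 1000 bases have a median of 0.79 in CTRL and of 0.48 in FGF13cko, with wide scatter at every length.

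Subunits and carriers outside the name rule included the largest changes of the pathway. Ndufa4l2, a paralog of Ndufa4 known as a target of hypoxia signalling, had 783, 740 and 327 normalized counts in CTRL and 13.8, 35.7 and 13.5 in FGF13cko. Cox4i2, the isoform of complex IV subunit 4 known for low oxygen and lung, had 141, 208 and 150 in CTRL and 6.88, 18.3 and 20.3 in FGF13cko. Both lay lower in every FGF13cko library than in any CTRL library. Ndufa4l2 fell by 4.85 on the log2 scale (SE 0.46, limma adjusted p = 0.00192) and Cox4i2 fell by 3.48 (SE 0.41, limma adjusted p = 0.00331). Higd1a, a small protein that binds complex IV, fell by 1.10 (limma adjusted p = 0.00433), and Cycs, cytochrome c, rose by 0.77 (SE 0.19, limma adjusted p = 0.0324). Cox4i1, the common isoform of subunit 4, had 6792, 7170 and 8520 normalized counts in CTRL and 9299.7, 9175 and 9864 in FGF13cko (log2 change 0.34, limma adjusted p = 0.170). Cyc1, cytochrome c1 of complex III, had a log2 change of 0.43 (limma adjusted p = 0.115) and Ndufab1, the acyl carrier protein of complex I, of 0.16 (0.611). Of the 11 genes of this list tested, 1 rose and 3 fell by limma, where all genes gave 7.55% and 7.08%.

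Genes that build and regulate the respiratory chain were read from further lists. Beside the counts of these lists, all genes gave 7.55% higher and 7.08% lower by limma. They gave 7.06% and 7.86% by edgeR, 11.9% and 11.7% by DESeq2, and 16.7% and 15.1% at an unadjusted limma p under 0.05. With the block limma gave 16.2% and 13.9% of all genes, and without both replicate 3 libraries 18.9% and 18.4%. Of 46 respiratory complex assembly factors tested, 0 were called by limma (median log2 change 0.13), against 5 higher and 1 lower with the block and 8 higher and 0 lower without both replicate 3 libraries. edgeR called 0 and DESeq2 2 of them, and 5 were higher and 1 lower at an unadjusted p under 0.05. Of 77 mitochondrial ribosomal proteins limma called 3 higher and 0 lower, edgeR 3 and 1 and DESeq2 8 and 1, with 13 and 3 at an unadjusted p under 0.05. With the block there were 12 and 4, and 15 and 4 without both replicate 3 libraries. The 3 rose, Mrps6 by 1.71 (limma adjusted p = 0.00781), Mrpl16 by 0.52 (0.0423) and Mrpl20 by 0.69 (0.0477). Of 25 genes for mitochondrial DNA transcription and replication limma called 1 higher and 0 lower, against 4 and 1 with the block and 6 and 1 without both replicate 3 libraries, DESeq2 1 and 1 and edgeR 0. The unadjusted p was under 0.05 for 1 higher and 3 lower. The 1 was Fastkd2, an RNA-binding protein of mitochondria, which rose by 0.55 (limma adjusted p = 0.0422). Tfam, which packages mitochondrial DNA and acts as a factor in its transcription, had a log2 change of 0.18 (limma adjusted p = 0.435).

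Of 13 regulators of mitochondrial biogenesis limma and edgeR called 3 higher and 0 lower and DESeq2 4 and 0, as many as had an unadjusted p under 0.05. Their median log2 change was -0.04. All genes gave 7.55% higher and 7.08% lower by limma, 7.06% and 7.86% by edgeR and 11.9% and 11.7% by DESeq2. Without both replicate 3 libraries limma called 4 and 2. The 3 called by limma were the estrogen-related receptors, nuclear receptors that drive genes of oxidative metabolism. Esrrg had 91.5, 92.6 and 100 normalized counts in CTRL and 256, 289 and 341 in FGF13cko, and it rose by 1.62 (SE 0.19, limma adjusted p = 0.00295). Esrra had 2348, 2366 and 1759 in CTRL and 3335, 3427 and 3576 in FGF13cko, and it rose by 0.69 (SE 0.16, limma adjusted p = 0.0268). Esrrb had 273, 298 and 81.9 in CTRL and 664, 634 and 602 in FGF13cko, and it rose by 1.74 (SE 0.44, limma adjusted p = 0.0370). In all 3 genes no CTRL library reached an FGF13cko library. Their coactivator Ppargc1a had a log2 change of 0.43 (limma adjusted p = 0.0756) and Nrf1 of -0.05 (0.893). Of 18 genes of the tricarboxylic acid cycle and pyruvate dehydrogenase limma called 2 higher and 0 lower, edgeR 2 and 0 and DESeq2 3 and 1, with 5 and 1 at an unadjusted p under 0.05. With the block there were 7 and 1, and 10 and 1 without both replicate 3 libraries. Idh3a rose by 0.82 (limma adjusted p = 0.0353) and Pdhx by 0.63 (0.0385). Among the genes outside the name rule and of these lists, Ndufa4l2, Cox4i2, Higd1a, Mrps6 and Esrrg kept their calls without each library in turn. Cycs, Mrpl16, Mrpl20, Fastkd2, Esrra, Esrrb, Idh3a and Pdhx lost theirs without at least 1 library, with limma adjusted p of up to 0.112, 0.135, 0.156, 0.153, 0.112, 0.127, 0.123 and 0.147.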

How the data were processed

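Libraries were made with a NEBNext Ultra kit, per the labels' protocols, and this kit is known not to mark strand. The submitters' processing notes name STAR, DESeq2 and mm10. Which annotation and counter were used is not given in the sources used here. Per gene and library, the authors deposited a normalized expression signal, read counts divided by a size factor, and whole reads were recovered for 100% of values within 0.01 of a read. The table also holds log2 fold changes, a Wald score and p-values as the authors deposited them. A count of 0 allows up to 3 reads, or 2.89 to 3.05 normalized counts (95% level, counting error only).

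Since the values are not raw counts, limma 3.58.1 (R 4.3.3) was fitted to log2(normalized count + 1) by genotype alone, with the variance allowed to follow the mean, over 16852 genes with a mean of at least 10. P-values were 2-sided and adjusted over all of them. edgeR 4.0.16 (quasi-likelihood) and DESeq2 1.42.0 on the recovered reads were alternatives, as were other scalings, pseudocounts, filters and left-out libraries. The fit was also run on simulated independent counts without a replicate 3 shift, which cannot show how it behaves on these libraries. Residuals of same-numbered libraries correlated at 0.36, 0.20 and 0.54, all above 0.1, so the replicate number was also fitted as a block. No label says what a number marks, and CTRL 2 correlated more with FGF13cko 1 (0.33). CTRL 1 and FGF13cko 2 correlated at 0.26. Residuals sum to 0 within a group, so a shift shared by the replicate 3 libraries also links the others. The values for numbers 1 and 2 therefore cannot show a pairing.

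Coordinates are from GENCODE M21 (GRCm38), with 1 principal transcript per gene for lengths. Annotated pseudogenes of at least 95% identity were found for 22 of 79 nuclear members, and 43 of the 90 members overlap another gene. The members and lists were chosen with earlier results of these data known. Named by rule were 40 genes: mitochondrially encoded members, nuclear members past the threshold or most abundant in their complex, a set of isoforms and paralogs, and up to 2 per direction of each list. Others, such as Atp5k, Uqcrc1, Ndufs7, Cox5a, Esrrb and Higd1a, were chosen after their values were seen.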

Additional observations from a re-analysis of the deposited data

How the results depend on the processing

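Over the alternatives run, the median log2 change of the nuclear members ran from 0.068 without FGF13cko 3 to 0.377 without CTRL 3. That of the mitochondrially encoded members ran from 0.387 without CTRL 1 to 1.25 without CTRL 3. These moves were smaller than the spread between libraries (SD 0.297 and 0.629). The nuclear SD exceeds the main nuclear median of 0.230, so this yardstick cannot show that the medians are stable. Counts of calls moved by more than 1.5 times under some alternatives. The 4 members called became 13 by DESeq2, 22 with the replicate block, 51 without both replicate 3 libraries and 0 to 24 when 1 library was left out. The share of all genes called moved too, from 14.6% in the main fit to 23.6% by DESeq2 and 30% with the block. It was 37.3% without both replicate 3 libraries and 26.4% without CTRL 3. In the limma fits among these, in the same order, the members' shares were 4.44%, 24.4%, 56.7% and 26.7%. The 3 nuclear calls became 10 by DESeq2, 16 with the block, 5 when scaled by reads that are not mitochondrially encoded, 44 without both replicate 3 libraries and 0 to 17 with 1 library left out. The 1 mitochondrially encoded call became 3 by DESeq2, 2 with a pseudocount of 0.5, 6 with the block, 7 without both replicate 3 libraries and 0 to 7 with 1 library left out. The high ends are the fits without CTRL 3 and the low ends those without FGF13cko 2, where the count was 0 in all 3 sets. The cause was not tested.

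Some small changes turned sign. Without both replicate 3 libraries the log2 change of mt-Co1 was 0.11 and that of mt-Co2 0.13. Ndufc2 changed by -0.030 by DESeq2 and -0.048 by edgeR. With 1 library left out, mt-Co1 ranged from -0.42 to 0.37, mt-Co2 from -0.32 to 0.34, mt-Co3 from -0.10 to 0.69, mt-Atp6 from -0.12 to 0.62, Ndufc2 from -0.24 to 0.40, Cox7a2 from -0.054 to 0.51, Cox8a from -0.021 to 0.29 and Ndufab1 from -0.0053 to 0.31. The effect of depth was not tested. The least read of the members named are mt-Nd3 with 52 reads in CTRL and 101 in FGF13cko, and Cox6a2 with 229 and 68.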
